A study of Mus musculus with 12 samples.

Results

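The genes described here are 35 genes of the endoplasmic reticulum (ER) that fold secreted and membrane proteins or signal when folding fails, chosen by symbol from a list for the unfolded protein response. All 35 had a row among the 15838 genes of each of the 3 deposited tables. They were measured in mouse corneal endothelium, the single cell layer on Descemet membrane that pumps fluid out of the corneal stroma. RNA was sequenced from 12 libraries of C57BL/6 mice aged 10 weeks: 3 from Slc4a11+/+ (WT) females, 3 from WT males, 3 from Slc4a11-/- (KO) males and 3 from KO females. Slc4a11 encodes a membrane transporter, and the KO allele is a targeted deletion of several of its exons present in all tissues. The sample descriptions speak of pooled membranes and the methods of membranes taken as pairs from each mouse, so the number of animals behind 1 library was not settled here.

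The ER folds proteins with the help of chaperones, lectins that bind sugar chains, and disulfide isomerases. When unfolded protein accumulates, the sensors IRE1, PERK and ATF6 are activated, and through XBP1, ATF4 and cleaved ATF6 they raise the transcription of chaperones and of the machinery that exports misfolded protein for degradation. Endothelial cells of the cornea secrete Descemet membrane collagen throughout life, which is made in the ER.

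Of the tables, the value used here is the authors' mean log2 CPM of each gene over all 12 libraries, where CPM are read counts scaled to the same library size. It mixes KO with WT and males with females, and it carries no error and no n for a single group. Levels in single libraries, and therefore KO against WT and male against female, were not analysed here. The text describes how abundant each transcript was in this tissue and what the genes' promoters share. To compare genes, each mean was divided by the length of the gene's exons in GENCODE M21, which gives a level in log2 CPM per kilobase (kb). A length matched 15824 of the 15838 genes, and their median was 1.79 log2 CPM per kb, which is 3.45 CPM per kb. The percentile of a gene is the percentage of these genes at or below its level per kb. With no spread between libraries at hand, genes that stand next to each other in the order cannot be said to differ.

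The promoters are shown first, because the stress sensors act on genes through short DNA elements. The ER stress response element (ERSE), bound by ATF6 with NF-Y, was searched as CCAAT, any 9 bases and CCACG. Windows of 300 bases, 250 before and 50 after the transcription start, came from RefSeq (GRCm38.p6) and were read on both strands. Of the 35 members, 30 matched a window by symbol, and Hyou1, Manf, Atf6, Ppp1r15b and Derl1 did not. The element stood in the windows of 9 of these 30 genes, against 39 of all 32851 windows (0.119%) and 19 of the 10954 genes of the tables with a window (0.174%). The 9 members therefore made up 47.4% of those 19 genes. The gene list and the element both come from earlier knowledge of the unfolded protein response. This share is therefore a description and no independent result. The 10 sites are printed below 5′ to 3′ on the strand that reads CCAAT first, with 5 bases on either side and the fixed bases in capitals.
Calr, chr8:84847070-84847098, + strand: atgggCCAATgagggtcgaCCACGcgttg
Canx, chr11:50325795-50325823, - strand: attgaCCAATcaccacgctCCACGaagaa
Hspa5, chr2:34772020-34772048, + strand: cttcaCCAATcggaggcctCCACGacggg
Hsp90b1, chr10:86705528-86705556, + strand: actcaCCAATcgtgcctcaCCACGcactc
Hsp90b1, chr10:86705633-86705661, - strand: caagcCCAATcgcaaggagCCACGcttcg
Dnajc3, chr14:118937822-118937850, + strand: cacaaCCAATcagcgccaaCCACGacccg
Pdia6, chr12:17266486-17266514, + strand: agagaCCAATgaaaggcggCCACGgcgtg
Creld2, chr15:88819515-88819543, - strand: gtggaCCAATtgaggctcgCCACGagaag
Syvn1, chr19:6046527-6046555, + strand: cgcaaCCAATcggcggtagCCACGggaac
Derl3, chr10:75893237-75893265, - strand: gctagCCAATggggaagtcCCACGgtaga

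All 10 sites lay before the RefSeq start. The nearest, in Syvn1, left 25 bases between its end and that start. The farthest, the second site of Hsp90b1, left 193 bases. The site of Hspa5 left 46 bases. In GENCODE M21, used for the lengths, the Hspa5 gene begins at chr2:34771970, so its site lies within the bounds of that gene. The element ran in the direction of the gene at 6 sites and against it at 4, and Hsp90b1 held 1 of each. The carriers were the chaperones Hspa5 and Hsp90b1, both lectin chaperones, 1 isomerase (Pdia6), the co-chaperone Dnajc3, Creld2, and 2 genes of ER-associated degradation (Syvn1 and Derl3). No sensor and no transcription factor among the members with a window held the exact element. Allowing 1 mismatch in the 10 fixed bases brought the members to 15 of 30, and all windows to 494 of 32851. The genes added were Pdia3, Pdia4, Ddit3, Herpud1, Sel1l and Derl2.

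Further elements were searched in the same windows, and ERSE-II and an ATF4 element are shown here because they occur in members without the exact ERSE. ERSE-II, which is ATTGG, any base and CCACG, was found in Herpud1 and Dnajb11, and in 12 of the 32851 windows (0.0365%). The sites are printed with the fixed bases in capitals.
Herpud1, chr8:94386372-94386392, + strand: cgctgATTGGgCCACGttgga
Dnajb11, chr16:22857847-22857867, + strand: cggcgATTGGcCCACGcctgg
The amino acid response type element TGATGNAA, where ATF4 binds with a C/EBP partner, was found in Chac1, Trib3 and Herpud1. These were 3 of 30 members, against 3.97% of all windows and 2.67% of the genes of the tables with a window. Of the 55 other pathway genes with a level and a window, 6 held it: Asns, Cnpy2, Kdelr1, Nupr1, Txndc5 and Vldlr. The members' sites are printed.
Chac1, chr2:119351044-119351061, - strand: aggagTGATGcAAcggca
Trib3, chr2:152344034-152344051, + strand: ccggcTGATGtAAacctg
Herpud1, chr8:94386312-94386329, - strand: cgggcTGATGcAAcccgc
The Dnajb11 and Trib3 sites began at bases 8 and 15, counting the RefSeq start as base 1, and the others lay before that start. In GENCODE M21 the Trib3 gene, on the - strand, has its first base at chr2:152344032, so its site lies before that gene. Chac1 and Trib3 are targets of the ATF4 branch, and Herpud1, an ER membrane protein of the degradation machinery, was the only member whose window held more than 1 kind of element. The XBP1 element TGACGTGG stood in no member's window and in 222 of all windows (0.676%). It was present in 6 of the 55 other pathway genes with a level and a window, which were Dnajc25, Kdelr3, Txndc11, Txndc5, Ube2j1 and Vcp. A missing match says only that these letters are not in the window, and a match is not evidence of binding in this tissue.

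**Figure D1:**
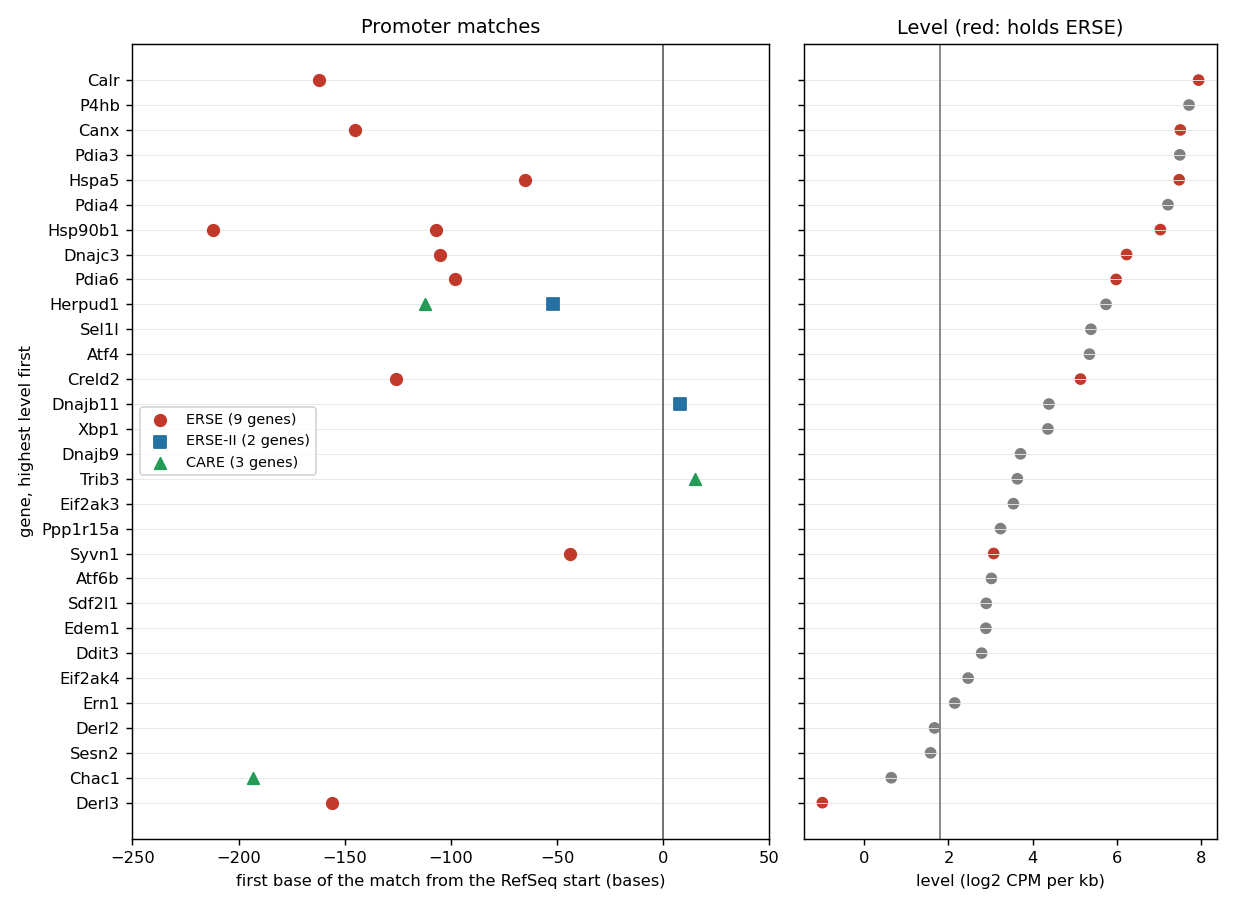
Left, distance in bases of each match from the RefSeq start for the 30 members with a promoter window, with the highest level at the top; right, their level in log2 CPM per kb, red for the 9 carriers of the exact ERSE and grey for the rest, with a vertical line at the median of all genes. Of the 9 carriers, 7 lie between 5.13 and 7.94, Syvn1 at 3.07 and Derl3 at -0.99.

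The members were abundant transcripts. Their median was 3.71 log2 CPM per kb (13.1 CPM per kb), and 31 of 35 stood above the median of all genes. The upper 25% of all genes, above 3.21 log2 CPM per kb, held 23 members, the upper 10%, above 4.42, held 15, and the upper 1% held 6. Only Derl3 lay in the lowest 25%, and with the length of the coding sequence Chac1 did as well (21.7th percentile). Summed over back-transformed means, the members took 6628 CPM, or 0.678% of the total of all genes, while being 0.221% of the genes. The range between members was wide: Calr exceeded Derl3 by 487-fold per kb.

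**Figure D2:**
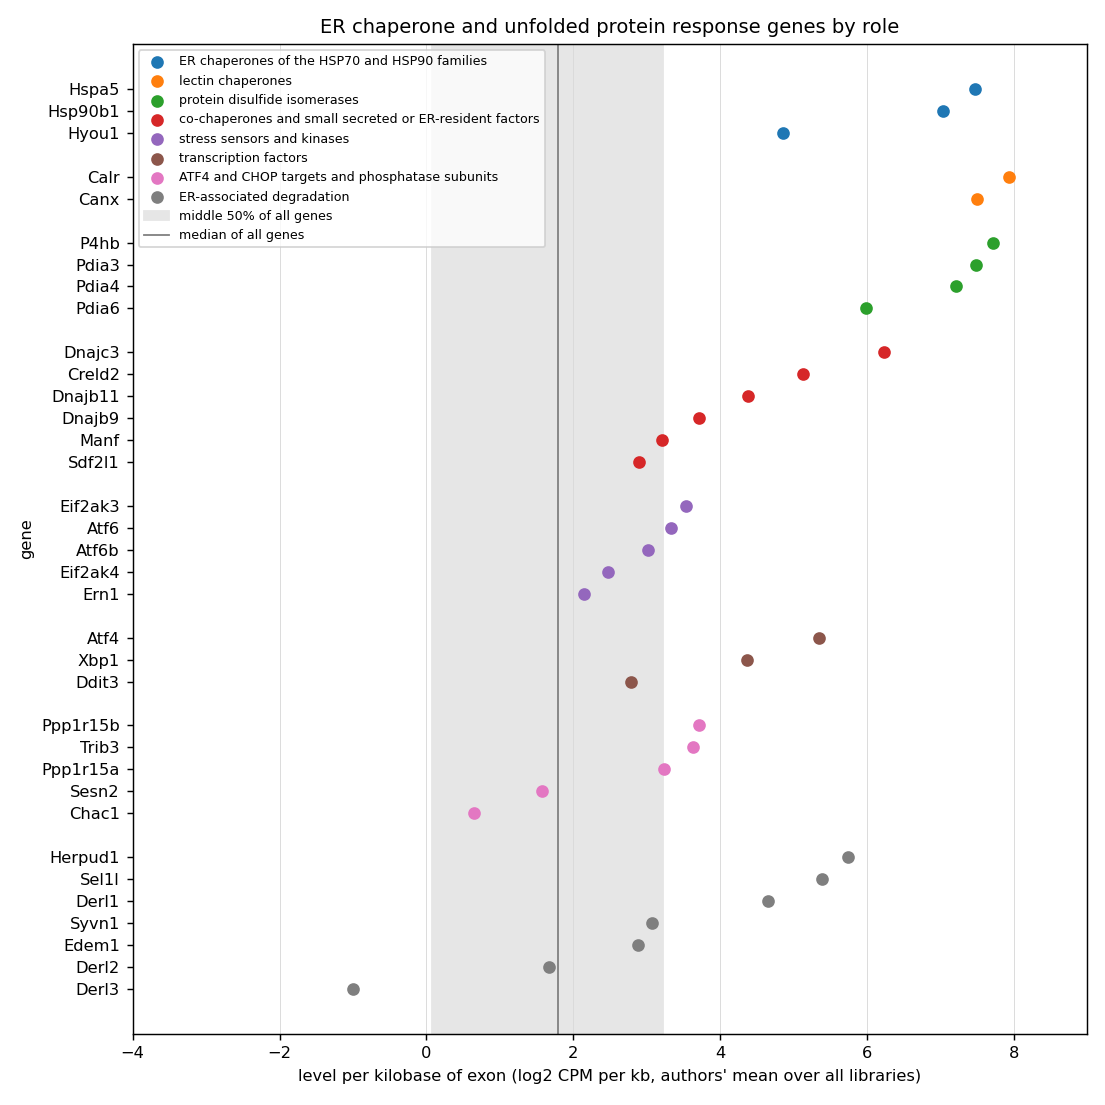
Level of each of the 35 members in log2 CPM per kb of exon, grouped and coloured by role, with the middle 50% of all genes in grey and their median (1.79) as a line. The chaperones, lectins and isomerases lie at 4.86 or higher, and the 5 sensors and kinases between 2.15 and 3.54.

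The folding machinery of the ER lumen led the order. Hspa5 (BiP), the HSP70 chaperone that holds unfolded chains and keeps the stress sensors inactive, had a mean of 9.55 log2 CPM (752 CPM) and stood at 7.47 log2 CPM per kb, rank 115 of 15824. Hsp90b1 (GRP94), the HSP90 of the ER, stood at 7.03 log2 CPM per kb, rank 160. Hyou1, a large HSP70 relative that acts as nucleotide exchange factor for BiP, stood at 4.86 log2 CPM per kb, so that Hspa5 exceeded it by 6.13-fold per kb. Among the lectin chaperones, which retain glycoproteins until they are folded, the soluble Calr stood at 7.94 and the membrane-bound Canx at 7.50 log2 CPM per kb. Calr was the highest member, at rank 71. Canx had the highest mean without division by length, at 9.73 log2 CPM (850 CPM).

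All 4 protein disulfide isomerases, which form and rearrange disulfide bonds, lay in the upper 10%. P4hb stood at 7.71 log2 CPM per kb, at rank 86. The same protein is also the beta subunit of the prolyl hydroxylase that modifies collagen. Pdia3, the isomerase that works with calnexin and calreticulin, stood at 7.49, Pdia4 at 7.21 and Pdia6 at 5.98 log2 CPM per kb. The 9 highest members together, which were these 4 isomerases, both lectins, Hspa5, Hsp90b1 and Dnajc3, took 4972 of the members' 6628 summed CPM.

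The 6 co-chaperones and small ER factors spread from 2.90 to 6.23 log2 CPM per kb of exon, all above the median of all genes, though Sdf2l1 lay below it with coding length (45.7th percentile). Dnajc3 (p58IPK), a BiP co-chaperone that also restrains PERK, stood highest at 6.23, with a mean of 385 CPM. Creld2, a stress-induced ER protein, stood at 5.13 log2 CPM per kb. Dnajb11 stood at 4.38 and Dnajb9, which brings BiP to IRE1, at 3.71 log2 CPM per kb; both are J-domain partners of BiP. Manf, a secreted factor that binds BiP, stood at 3.21 log2 CPM per kb. Sdf2l1, a partner of Dnajb11 that is strongly induced under ER stress, was the lowest of the 6 at 2.90 log2 CPM per kb, a mean of 8.25 CPM.

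The sensors were moderately expressed and none reached the upper 10%. Eif2ak3 (PERK), which phosphorylates eIF2-alpha, stood at 3.54 log2 CPM per kb. Atf6 stood at 3.33 and its relative Atf6b at 3.02. Eif2ak4 (GCN2), the eIF2-alpha kinase that senses amino acid shortage and no ER sensor itself, stood at 2.47. Ern1 (IRE1-alpha), the kinase and nuclease that splices Xbp1, was lowest of the 5 at 2.15 log2 CPM per kb of exon, in the 56.4th percentile. With coding length, Eif2ak4 (3.06) and Atf6b (3.39) stood below Ern1 (3.63 log2 CPM per kb), and all 3 lay under the median of all genes. Hspa5 exceeded Eif2ak3 by 15.3-fold, Atf6 by 17.7-fold and Ern1 by 40.1-fold per kb, the 3 sensors whose lumenal parts BiP binds. With coding length these ratios were 18.2, 8.13 and 30.9, so that the order of Eif2ak3 and Atf6 turned.

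Of the transcription factors, Atf4, whose translation rises when eIF2-alpha is phosphorylated, stood at 5.35 log2 CPM per kb (95.4th percentile). Xbp1 stood at 4.36 log2 CPM per kb, with spliced and unspliced forms counted together. Ddit3 (CHOP), the pro-apoptotic factor downstream of ATF4, stood at 2.79 log2 CPM per kb, a mean of 11.8 CPM, and Atf4 exceeded it by 5.89-fold per kb of exon and 3.91-fold per kb of coding length. Among the genes that ATF4 and CHOP switch on, Trib3 (a pseudokinase) stood at 3.64, Sesn2 (an inhibitor of mTORC1 signalling) at 1.58 and Chac1 (which breaks down glutathione) at 0.64 log2 CPM per kb. Chac1, at a mean of 2.56 CPM, was the second lowest member, and Trib3 exceeded it by 7.96-fold per kb. Both windows held TGATGNAA. Of the eIF2-alpha phosphatase subunits, the constitutive Ppp1r15b (CReP) stood at 3.71 and the inducible Ppp1r15a (GADD34) at 3.24 log2 CPM per kb. Ppp1r15b exceeded Ppp1r15a by 1.39-fold per kb of exon and by 2.50-fold per kb of coding length.

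The 7 genes of ER-associated degradation spanned almost the whole range. Herpud1 stood at 5.74 and Sel1l, the adaptor of the ubiquitin ligase complex, at 5.38 log2 CPM per kb. The ligase itself, Syvn1 (HRD1), stood at 3.07, so that Sel1l exceeded it by 4.95-fold per kb. Edem1, which marks glycoproteins for disposal by trimming mannose, stood at 2.89 log2 CPM per kb. The 3 derlins, membrane proteins of the export channel, were unequal: Derl1 stood at 4.66, Derl2 at 1.67 and Derl3 at -0.99 log2 CPM per kb. Derl1 exceeded Derl3 by 50.2-fold per kb of exon and 76.1-fold per kb of coding length. It exceeded Derl2 by 7.92-fold per kb of exon, but by only 3.12-fold per kb of coding length. Derl3, at 0.502 CPM per kb, was the lowest of all members, and its window held the exact ERSE.

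Carriers of the exact ERSE had a median of 6.23 log2 CPM per kb (n = 9 genes, from -0.99 to 7.94), and the 21 members with a window and no exact ERSE had a median of 3.54 (from 0.64 to 7.71). Among carriers 7 of 9 lay in the upper 10% of all genes, among the others 6 of 21. This split also divides the roles. No sensor, transcription factor, ATF4 or CHOP target or phosphatase subunit with a window was a carrier. Element and role therefore cannot be told apart here, and a link between the element and the level was not tested. With coding length the carrier Creld2 left the upper 10%, going from the 94.5th to the 80.3rd percentile. The count among the others did not change. The 10 other genes of the tables with the element had a median of 1.60 log2 CPM per kb. Within the isomerases the order was the other way, with the carrier Pdia6 at 5.98 and the non-carriers Pdia4, Pdia3 and P4hb from 7.21 to 7.71 log2 CPM per kb.

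The choice of gene length moved some members. The percentile of 14 members shifted by more than 10 points between the length of all exons, of the longest transcript and of the coding sequence. Atf6b shifted most, by 30.6 points, from the 71.8th percentile with all exons to the 41.2nd with coding length. Derl2, with long annotated exons, went from the 47.8th to the 74.5th. Calr, Canx, P4hb, Pdia3 and Hspa5 stayed above the 98th percentile under all 3 lengths, and Chac1, Sesn2 and Derl3 stayed below the median.

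**Figure D3:**
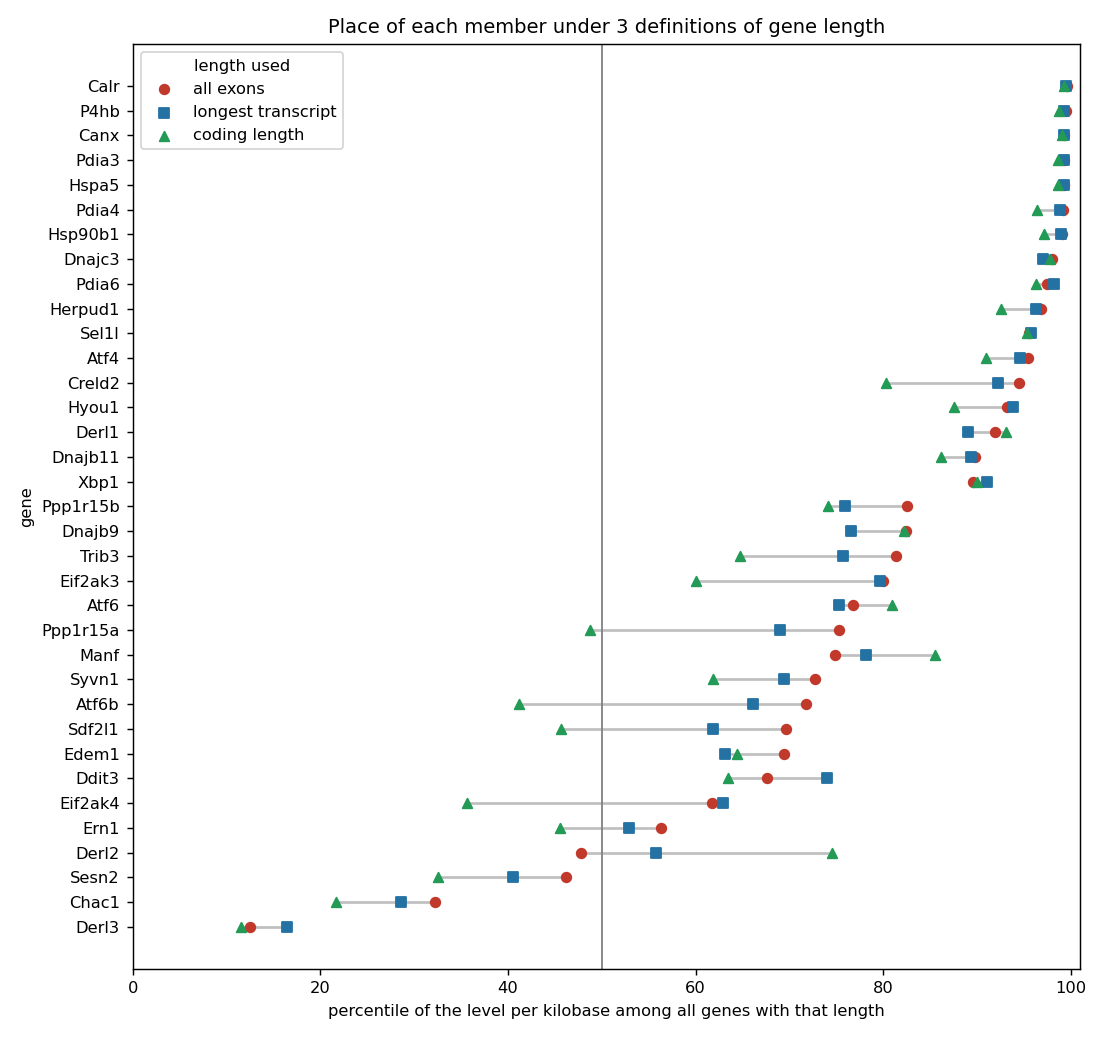
Percentile of each member's level per kb among all genes with that length, with the length of all exons (circles), of the longest transcript (squares) and of the coding sequence (triangles), and a line at the median of all genes. The upper members hardly move, whereas Atf6b, Eif2ak4, Derl2 and Ppp1r15a shift by more than 25 points.

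Overlapping or copied sequence was found for some members, and its effect on their levels was not tested. Exons of 12 members overlap exons of another annotated gene, by more than 10% of the member's exon bases only in Hsp90b1 (10.3%) and Ppp1r15b (11.4%). The library kit keeps the strand, but whether the counting used it is not given in the sources used here. A stretch at least 95% identical over at least 200 bases in another gene's transcript was found for 1 member, Derl1, whose match to Gm35638 covered 20.5% of its longest transcript.

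Other genes of the pathway stood at similar levels. Of 74 listed genes, 68 had a level, with a median of 3.84 log2 CPM per kb, and 59 stood above the median of all genes. Listed genes without a level are not among those the authors kept, so the median and the 3 lowest cover kept genes only. The 5 highest were Serpinh1 (HSP47, the collagen chaperone) at 7.62, Os9 (a lectin of degradation) at 7.08, Nupr1 (a stress-induced chromatin protein) at 6.79, Kdelr2 (a retrieval receptor) at 5.93 and Fkbp10 (a prolyl isomerase for collagen) at 5.92 log2 CPM per kb. The 3 lowest were Ero1b at 0.03, Stc2 at 0.09 and Vldlr at 0.23 log2 CPM per kb. Ero1b, an oxidase that recharges the isomerases, was the only one of the 55 such genes with a promoter window that held the exact ERSE. Its relative Ero1a stood at 2.77 log2 CPM per kb.

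The tissue label was checked against marker genes. The 7 markers of corneal endothelium reported here lay in the upper 10% of all genes: Aqp1 at 10.97, Col8a2 at 10.63, Slc4a11 at 8.39, Col8a1 at 8.31, Slc4a4 at 7.57, Alcam at 7.20 and Cdh2 at 6.14 log2 CPM per kb. The mean of Slc4a11 covers both genotypes and so does not check the labels. The 4 stromal keratocyte genes with a level were as high, from 7.20 to 9.34 log2 CPM per kb, the highest being Dcn. The highest marker was Krt5 at 3.99 for corneal epithelium, Pmel at 1.001 for iris pigment cells, Myh11 at 4.76 for muscle, Lyz2 at 3.91 for leukocytes, Bfsp1 at 1.37 for lens and Mbp at 2.70 for nerve and glia, in log2 CPM per kb. The part of stromal cells in the members' levels was not tested, and in bulk RNA more cells of a type cannot be told apart from more RNA per cell.

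**Figure D4:**
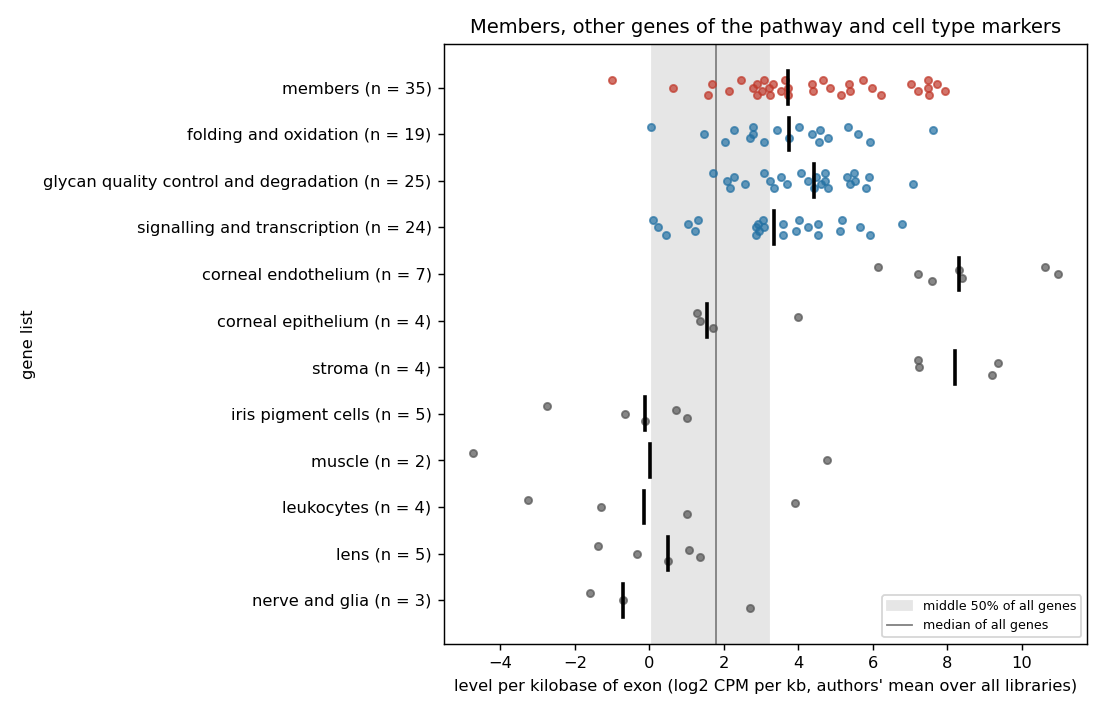
Level per kb of the 35 members (red), 3 lists of other pathway genes (blue) and 8 lists of cell type markers (grey), with 1 point per gene, a black bar at each list's median and the middle 50% of all genes shaded. Corneal endothelium and stroma markers lie right of the members' median (3.71), and the medians of the 6 other marker lists lie left of it. Single genes of these lists, Myh11 (4.76), Krt5 (3.99) and Lyz2 (3.91), lie right of it, and the muscle median rests on 2 genes.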

How the data were processed

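RNA from corneal endothelium on Descemet membrane was sequenced in 12 libraries by the authors (stranded low-input total RNA, paired-end reads). The authors aligned reads to GRCm38/mm10 with HISAT2, normalized counts with TMM and fitted limma with voom weights, with genotype, sex and their interaction as terms. The gene counter, its strand setting, the annotation release and the tool versions are not given in the sources used here.

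The authors deposited 3 tables (genotype, sex, interaction) of 15838 genes. Per the column headers, each holds limma's average expression, read here by limma's convention as the mean log2 CPM over all libraries. Each also holds the authors' own fold changes, t statistics, p-values and B statistics. Those comparison columns were not used. The mean log2 CPM, identical in the 3 tables, was used as the authors' value, with no SD or n. Values per library were not analysed here, so depth is unknown and the planned limma test of KO against WT, the sex comparison and the leaving out of libraries were not run.

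With Python 3.11.15 and pandas 2.3.3, log2 of exon length in kb (union of exons, GENCODE M21) was subtracted from each mean. CPM are back-transformed means. The tables hold genes the authors kept, so percentiles are among these. Motifs were searched in RefSeq promoters (GRCm38.p6), and the code was tested on simulated data. Copies were sought with BLAST (identity of at least 95% over 200 bases). All members were named, with the 5 highest and 3 lowest other pathway genes, the endothelial markers (1 is not reported here) and the highest gene of each other marker list; other genes were named after their values were seen. Members and lists were chosen with earlier results of these data known. Protein sequences were not used here.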

Additional observations from a re-analysis of the deposited data

How the results depend on the processing

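The median level of the members per kb was 3.71 log2 CPM, 3.96 with the length of the longest transcript and 5.65 with coding length. The last was chosen after seeing the data, and shorter lengths raise every gene's level. The mean from the sex or interaction table gave the same median. Of the 35 members, 31 stood above the median of all genes, 32 with the longest transcript, 31 among genes with a mean of at least 1 CPM, 30 among genes with a RefSeq protein and 27 with coding length. The count in the upper 10% was 15 with either transcript length and 13 with coding length. In mean log2 CPM, without division by length, 30 members stood above the median, with or without genes under 1 CPM. The exact ERSE was found in 9 members, also when only the 250 bases before the start were read, and in 15 with 1 mismatch allowed. ERSE-II was found in 2 members, and in 1 before the start. A count was taken as unmoved within 1.5 times, and the median within 0.1 on the log2 scale, since no spread between libraries was at hand.

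No paired analysis was possible because the result comes from no test and values per library were not analysed here. For the same reason no library was left out in turn. The planned coding length from RefSeq proteins was not run. The authors' mean without its error limits every statement to the order of levels, and low genes such as Derl3 and Chac1 have low CPM, with a depth that is unknown here.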

Other observations

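The 10 other genes of the tables whose RefSeq promoter window held the exact ERSE were looked up after the members' values were seen. Hnrnpa3, an RNA-binding protein, stood highest at 4.54 log2 CPM per kb, and Spats2l followed at 4.15. Alg12, a mannosyltransferase that builds the sugar chain for N-glycosylation in the ER, stood at 2.32 log2 CPM per kb. Its mean was 3.55 log2 CPM. The remaining genes were Zfp57 at 1.78, Pan2 at 1.65, Adcy3 at 1.56, Acacb at 0.55, Gm6566 at 0.49, Ero1b at 0.03 and Xlr3b at -3.48 log2 CPM per kb.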
